A study of Mus musculus with 12 samples.

Results

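The mouse mitochondrial genome encodes 37 genes, and all 37 had a row among the 55401 genes of the deposited count table. They were chosen by their symbol, which starts with mt-, and comprise 13 protein-coding genes, 2 ribosomal RNA genes and 22 transfer RNA genes. Their transcripts were measured in 12 RNA sequencing libraries of mouse left ventricle, 3 libraries in each of 4 groups. The groups were Prkca T497A after TAC, WT after TAC, Prkca T497A after sham surgery and WT after sham surgery. T497A is an amino acid substitution in protein kinase C alpha, and transverse aortic constriction (TAC) narrows the aorta and loads the left ventricle with pressure. All mice had their operation at 10 weeks of age, the constriction was sized with a 27-gauge needle, and the hearts were taken 5 weeks later at 15 weeks of age. Cardiomyocyte is the labelled cell type, but RNA was taken from the tissue without sorting, so the libraries are of whole ventricle. The labels give neither the strain nor the sex. Each title carries a number of its own, but the labels do not say whether it marks a separate animal. The p-values therefore measure the spread between these libraries.

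The mitochondrial genome is a small circular DNA present in many copies per cell. Both of its strands are transcribed as long precursors that are cut mostly at the tRNA genes lying between the others, which releases mRNAs, rRNAs and tRNAs. The 13 proteins are subunits of respiratory chain complexes I, III and IV and of the ATP synthase (complex V), where they assemble with subunits encoded in the nucleus, and cardiomyocytes, which are rich in mitochondria, carry large amounts of these transcripts. The libraries were prepared with an mRNA kit, in which RNA is captured by its poly(A) tail, so the counts of a mitochondrial RNA also follow how far it is tailed.

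Library totals ran from 36862004 to 46898344 counts. Levels below are CPM, which give the reads of a gene relative to the library total, scaled with edgeR's TMM factors, which ran from 0.933 to 1.12 and were highest in WT TAC. Of the 10 cardiomyocyte markers 8 were called lower after TAC in WT, against 12.6% of all genes tested, and their summed level was 64574 to 68569 CPM in T497A TAC, 54787 to 63789 CPM in WT TAC, 71353 to 81966 CPM in T497A sham and 77939 to 87298 CPM in WT sham. Summed fibroblast markers stood at 1541 to 2048 CPM in T497A TAC, 2727 to 3020 CPM in WT TAC, 1113 to 1560 CPM in T497A sham and 1086 to 1288 CPM in WT sham, and 5 of 8 were called higher after TAC in WT, against 12.3% of all genes tested. Of the 7 macrophage markers 6 were called higher after TAC in WT, again against 12.3%, with sums of 219 to 291 CPM in T497A TAC, 269 to 348 CPM in WT TAC, 184 to 235 CPM in T497A sham and 165 to 197 CPM in WT sham. Erythrocyte markers were called higher in 3 of 5, smooth muscle and pericyte markers in 1 of 6. No endothelial, lymphocyte, adipocyte, atrial or skeletal muscle marker was called in this comparison. Between the genotypes after TAC, 4 of 10 cardiomyocyte markers were called higher in T497A, against 4.64% of all genes tested. There 2 of 8 fibroblast and 1 of 7 macrophage markers were called lower in T497A, against 4.06% of all genes tested. No marker of the other cell types was called between the genotypes after TAC. No listed marker was at 0 in all libraries. Fewer cells of a type and less RNA per cell cannot be told apart in these libraries, and the part of cell makeup in the mitochondrial results was not tested.

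The 13 coding genes fell into classes of very unequal count. mt-Nd1, mt-Nd2, mt-Co1, mt-Nd4, mt-Nd5, mt-Nd6 and mt-Cytb each had at least 100000 counts in every library, whereas mt-Co2, mt-Atp8, mt-Atp6, mt-Co3, mt-Nd3 and mt-Nd4l averaged only 157 to 1273 counts. This division was made after the values were seen. The 6 genes with low counts held 0.0293% to 0.0519% of the coding counts of a library. All 6 lie wholly within bases 6381 to 11042 of the mitochondrial genome, a stretch that has a copy in the nuclear genome, annotated as 7 pseudogenes on the minus strand of chr1:24611535-24616197 (GRCm38). Of the 75-base windows of mt-Co2, mt-Atp6, mt-Co3, mt-Nd3 and mt-Nd4l, the length of a read, 97.8% to 99.9% were also found in another gene's transcript, and only 1 to 6 windows per gene were unique. mt-Nd4 and mt-Co1 lie partly in the stretch and shared 61.5% and 39.8% of their windows, while mt-Nd1, mt-Nd6 and mt-Cytb shared none. mt-Atp8 shared no window with an annotated transcript, but it lies between the genes whose copies are Gm28661 and Gm10925, where the annotation has no transcript to compare.

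The pieces that follow, from GENCODE transcripts of GRCm38, show how little tells gene and copy apart. mt-Nd3 (chrM:9459-9533, plus strand) and Gm28438 (chr1:24613045-24613119, minus strand) are given by their first 75 bases, with the one base that differs over 345 compared in capitals. This substitution is T3C, the base of mt-Nd3 first and counted from its 5′ end. mt-Co1 (chrM:6381-6455, plus strand) and Gm29216 (chr1:24616123-24616197, minus strand) are given where the copy begins, with all 6 bases that differ over 492 compared in capitals.
mt-Nd3: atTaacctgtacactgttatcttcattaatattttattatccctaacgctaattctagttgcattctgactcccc
Gm28438: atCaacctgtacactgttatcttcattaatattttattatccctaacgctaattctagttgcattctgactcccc
mt-Co1: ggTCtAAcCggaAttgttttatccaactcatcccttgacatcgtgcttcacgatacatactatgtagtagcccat
Gm29216: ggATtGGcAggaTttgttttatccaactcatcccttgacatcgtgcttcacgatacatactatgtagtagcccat
A read that misses these bases matches gene and copy equally well. Gm28438 itself had 1330 to 2591 counts per library, 8.14 to 22.9 times those of mt-Nd3, and the other 6 pseudogenes of the stretch had 36 to 337. How reads with several placements were counted is not given in the sources used here, so the levels of the 6 genes cannot be set beside those of the others, and their tests rest on few distinguishable reads.

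**Figure D1:**
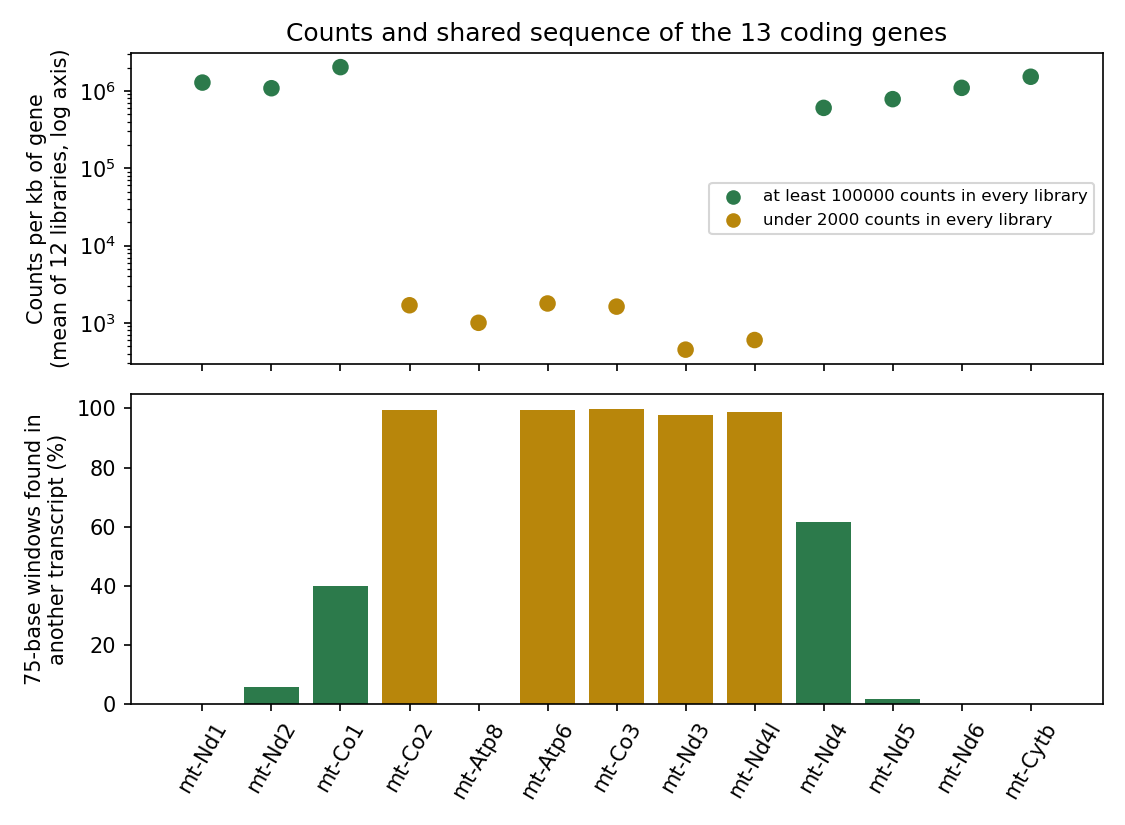
Upper panel: mean counts per kb of gene over the 12 libraries (log axis) for the 13 coding genes in genome order. Lower panel: percent of 75-base windows of each gene found in another gene's transcript. The genes with few counts are those whose windows are shared to 97.8% or more, together with mt-Atp8, which lies within the same stretch.

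Overlapping genes add a second limit. The last 43 bases of mt-Atp8 are also the first of mt-Atp6, and the last 14 bases of mt-Nd5 lie opposite the last of mt-Nd6, the only coding gene on the minus strand. Both overlaps are shown in capitals, mt-Atp8 whole (chrM:7766-7969, plus strand) and mt-Nd5 by its last 75 bases (chrM:13491-13565, plus strand).
mt-Atp8: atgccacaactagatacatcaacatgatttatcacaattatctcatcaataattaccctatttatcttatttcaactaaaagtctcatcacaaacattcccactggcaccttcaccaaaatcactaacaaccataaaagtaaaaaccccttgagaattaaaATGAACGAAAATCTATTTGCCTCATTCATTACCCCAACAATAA
mt-Nd5: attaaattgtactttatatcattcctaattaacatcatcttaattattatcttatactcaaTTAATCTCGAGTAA
Whether counting used strand is not given, so reads of mt-Nd6 and reads of RNA from the opposite strand of its region cannot be told apart. Among the 7 genes with high counts, the mean count per kb over all libraries ran from 604230 for mt-Nd4 to 2033480 for mt-Co1. Per unique window it ran from 830 for mt-Nd5 to 3550 for mt-Co1.

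The mitochondrial genome gave a large part of all counts, and this share was lowest in WT TAC. The 37 genes together took 24.6%, 25.3% and 26.1% of all counts in T497A TAC, 20.9%, 19.9% and 19.6% in WT TAC, 28.5%, 30.9% and 28.3% in T497A sham, with 25.1%, 26.6% and 29.0% in WT sham. Every WT TAC library lay below every library of the other 3 groups. T497A TAC libraries lay below all T497A sham libraries and overlapped the WT sham range. The means were 25.3% ± 0.770 in T497A TAC, 20.1% ± 0.698 in WT TAC, 29.2% ± 1.48 in T497A sham and 26.9% ± 1.94 in WT sham (SD, n = 3 each).

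Coding genes made up nearly all of this. They took 23.8% ± 0.670 of all counts in T497A TAC, 19.0% ± 0.721 in WT TAC, 27.5% ± 1.64 in T497A sham and 25.3% ± 1.76 in WT sham (SD, n = 3 each). The 2 rRNA genes, which make the RNA of the small and large mitochondrial ribosomal subunits, had 6.00 ± 0.620 counts per 100 coding counts in T497A TAC, 5.38 ± 0.372 in WT TAC, 5.94 ± 1.31 in T497A sham and 6.00 ± 0.293 in WT sham (SD, n = 3 each). The 3 WT TAC libraries, at 5.05 to 5.78, lay just below the 3 WT sham libraries, at 5.83 to 6.34, and all other pairs of groups overlapped. The 22 tRNA genes held 0.294% to 0.361% of the mitochondrial counts of a library.

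**Figure D2:**
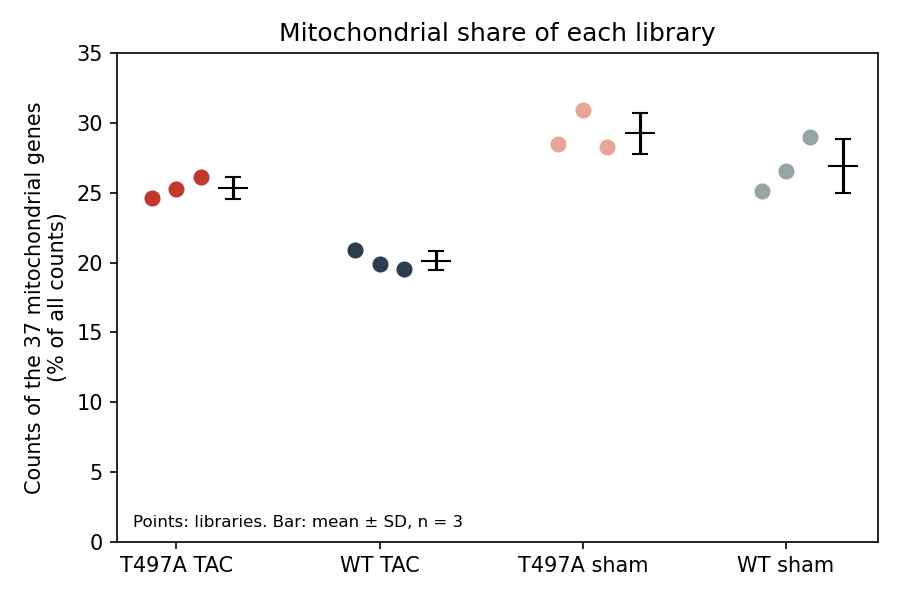
Counts of the 37 mitochondrial genes as percent of all counts in each library, by group, with the mean ± SD (n = 3) beside the points. WT TAC libraries, at 19.6% to 20.9%, lie below all others.

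After TAC in WT hearts all 13 coding genes fell. Tests were made with edgeR's quasi-likelihood test over 15764 genes, and a gene is named called where its Benjamini-Hochberg adjusted p is below 0.05. The 13 of 13 called lower compare with 12.6% of all genes tested called lower in this comparison, and the 3 WT TAC libraries lay below the 3 WT sham libraries for 13 of 13 coding genes, against 20.7% of all genes tested. The median log2 fold change of the coding genes was -0.67, against 0.01 for all genes tested, and -0.58 for the 7 genes with high counts.

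Complex I takes electrons from NADH, and 5 of its 7 mitochondrial subunits had high counts. mt-Nd5, a proton-pumping subunit of its membrane arm, stood at 23898, 22238 and 24387 CPM in WT TAC, against 35459, 38027 and 44485 CPM in WT sham. The groups did not overlap, and the log2 fold change of -0.74 ± 0.092 (SE; edgeR adjusted p = 8.82e-05) was the largest fall among the genes with high counts. mt-Nd4, a second subunit of this kind, had 15266, 15668 and 14868 CPM in WT TAC, against 19235, 20650 and 22956 CPM in WT sham. Its fall, also without overlap, was the smallest of the 13 (log2 fold change -0.46 ± 0.087, SE; edgeR adjusted p = 0.00179). mt-Nd1, which lies where ubiquinone enters the complex, mt-Nd2 and mt-Nd6 lay between them, with log2 fold changes of -0.64, -0.58 and -0.57. mt-Nd3 and mt-Nd4l, counted on few reads, had -0.77 and -0.97. Leaving out WT TAC replicate 1 or WT sham replicate 3 raised the adjusted p of mt-Nd3 to 0.0621 and 0.0753.

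Cytochrome b is the one mitochondrially encoded subunit of complex III. mt-Cytb stood at 32049, 30613 and 30178 CPM in WT TAC, against 40549, 44202 and 48494 CPM in WT sham. All TAC libraries were lower, with a log2 fold change of -0.52 ± 0.082 (SE; edgeR adjusted p = 0.000485). mt-Co1, the catalytic subunit of cytochrome c oxidase (complex IV), stood at 54718, 54040 and 54883 CPM in WT TAC, against 79959, 79860 and 89112 CPM in WT sham. Again the groups were apart, and the log2 fold change was -0.61 ± 0.078 (SE; edgeR adjusted p = 0.000120). Of the genes counted on few reads, mt-Co2 and mt-Co3 of complex IV had log2 fold changes of -0.78 and -0.67, and mt-Atp8 and mt-Atp6 of the ATP synthase had -0.93 and -0.79.

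Both rRNA genes fell as well. mt-Rnr1, the small subunit rRNA, had 2009, 2346 and 2572 CPM in WT TAC, against 3004, 3699 and 4703 CPM in WT sham (log2 fold change -0.72 ± 0.17, SE; edgeR adjusted p = 0.00926). mt-Rnr2, the large subunit rRNA, had 6915, 6716 and 7486 CPM in WT TAC, against 10905, 11420 and 13710 CPM in WT sham (log2 fold change -0.77 ± 0.15, SE; edgeR adjusted p = 0.00231). The groups were separate for both. Of the tRNA genes 18 of 22 passed the filter on low counts, and 12 of these 18 were called lower, against 12.6% of all genes tested. They were led by mt-Ts2 at -1.503, mt-Th at -1.27 and mt-Ta at -1.03. The first of these had only 24 to 103 counts per library and mt-Th only 60 to 209. The log2 fold change was -0.93 for mt-Tw, -0.91 for mt-Tn, -0.90 for mt-Tc, -0.88 for mt-Ty, -0.75 for mt-Tq, -0.68 for mt-Tm, -0.64 for mt-Ti and -0.53 for mt-Tp. The call of mt-Ti was lost with library totals and in turn without WT TAC replicates 2 and 3 and WT sham replicate 1 (edgeR adjusted p of 0.0521 to 0.0688), and that of mt-Tw without WT TAC replicates 2 and 3 and WT sham replicate 2 (0.0508 to 0.0845). mt-Te, the tRNA gene with the highest counts, was called lower at -0.63, while mt-Tl1, the next, had -0.30 and was not called.

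**Figure D3:**
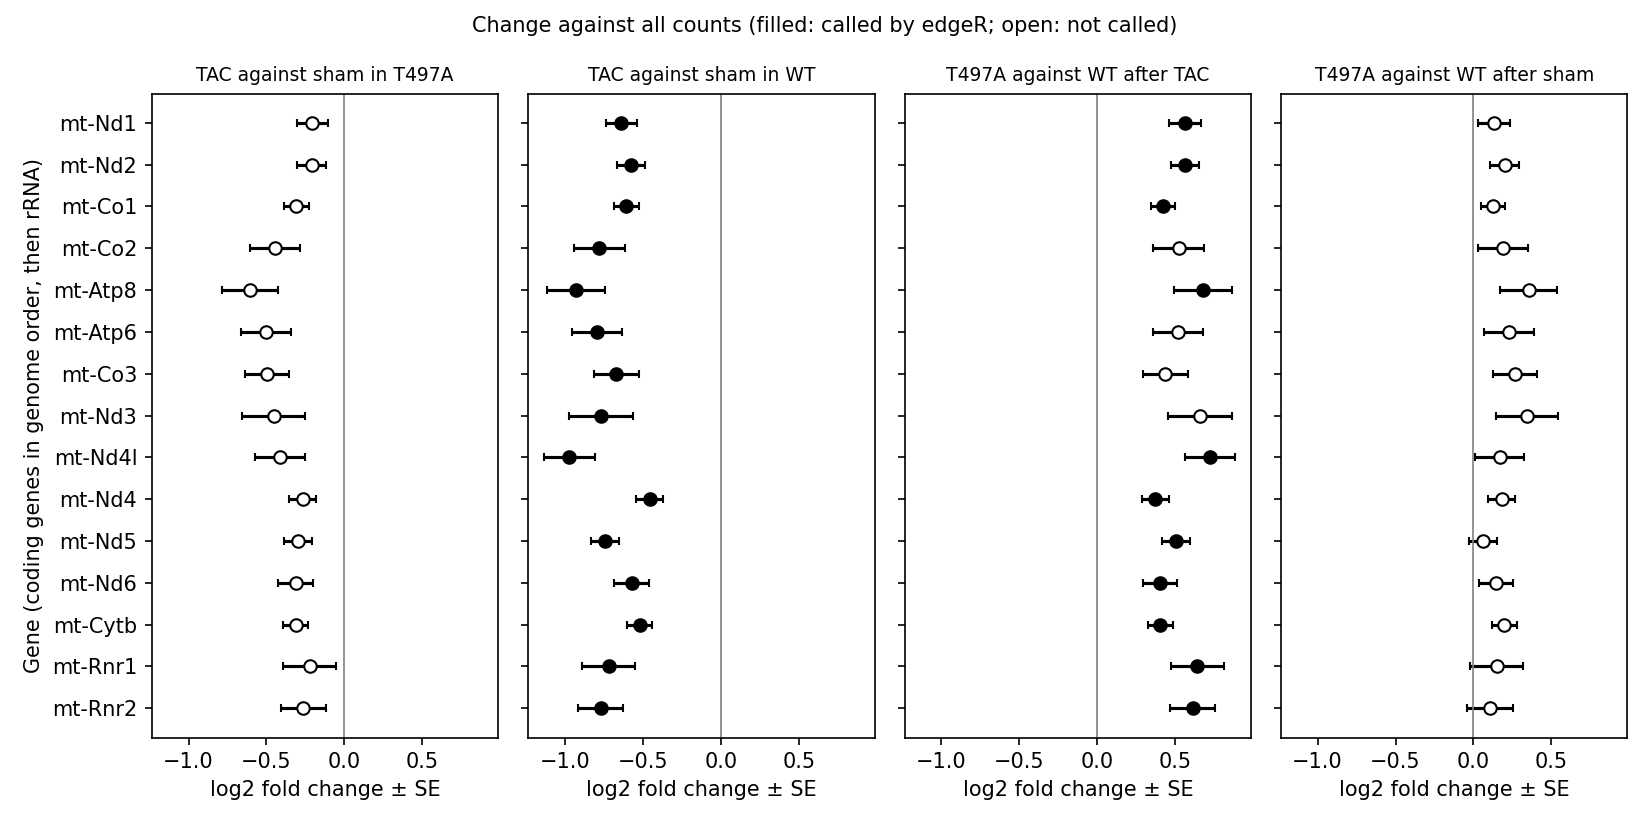
log2 fold change ± SE against all counts (TMM) for the 13 coding genes in genome order and the 2 rRNA genes in the 4 comparisons of single groups. Filled points are called by edgeR at an adjusted p below 0.05, which holds for all 15 genes in TAC against sham in WT and for 11 of 15 in T497A against WT after TAC.

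In T497A hearts the coding genes lay lower after TAC by a smaller amount, and none was called. Over all genes tested 0.0507% were called lower in this comparison, 8 genes in number. For 13 of 13 coding genes the 3 T497A TAC libraries lay below the 3 T497A sham libraries, against 7.68% of all genes tested. The median log2 fold change was -0.31, against 0.0069 for all genes tested, and 12 of 13 had an unadjusted p below 0.05. mt-Co1 stood at 69906, 70653 and 78512 CPM in T497A TAC, against 87731, 96756 and 86710 CPM in T497A sham. The TAC libraries were all lower, by a log2 fold change of -0.31 ± 0.078 (SE; edgeR adjusted p = 0.157). mt-Cytb had 39502, 40637 and 42836 CPM in T497A TAC, against 49275, 55061 and 48468 CPM in T497A sham, with a log2 fold change of -0.31 ± 0.082 (SE; edgeR adjusted p = 0.163) and no overlap. mt-Nd5 had 30857, 34449 and 34815 CPM in T497A TAC, against 41091, 43597 and 38390 CPM in T497A sham, also apart, with a log2 fold change of -0.30 ± 0.092 (SE; edgeR adjusted p = 0.222). DESeq2 called 2 of the 13, mt-Co1 and mt-Cytb, and edgeR without the filter on low counts called 6. The rRNA libraries overlapped between the surgeries, with log2 fold changes of -0.22 for mt-Rnr1 and -0.26 for mt-Rnr2.

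Between the genotypes after TAC, mitochondrial transcripts were higher in T497A. In the same comparison 4 of 10 cardiomyocyte markers were called higher and 2 of 8 fibroblast markers lower. The part of cell makeup in this difference was not tested. Of the 13 coding genes 9 were called higher, against 4.64% of all genes tested, and for 12 of 13 every T497A TAC library lay above every WT TAC library, against 14.4% of all genes tested. Their median log2 fold change was 0.52, against 0.0028 for all genes tested. The 9 were all 7 genes with high counts together with mt-Atp8 and mt-Nd4l. The call of mt-Atp8 (edgeR adjusted p = 0.0384) was lost in turn without each T497A TAC library, WT TAC replicates 1 and 2, T497A sham replicate 3 and WT sham replicates 1 and 3, with adjusted p of 0.0511 to 0.127, and that of mt-Nd4l (0.0163) without WT TAC replicate 1 (0.0605). mt-Co2, mt-Atp6, mt-Nd3 and mt-Co3, counted on few reads, had log2 fold changes of 0.44 to 0.66 and adjusted p of 0.0631 to 0.0757 in edgeR's test.

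Among the complex I genes mt-Nd1 and mt-Nd2 differed most of those with high counts. mt-Nd1 stood at 30320, 29156 and 31477 CPM in T497A TAC, against 20724, 19954 and 20882 CPM in WT TAC, a log2 fold change of 0.56 ± 0.10 (SE; edgeR adjusted p = 0.00510). mt-Nd2, which also has a part in proton pumping, stood at 27642, 26606 and 29968 CPM in T497A TAC, against 19066, 19137 and 18753 CPM in WT TAC, a log2 fold change of 0.56 ± 0.092 (SE; edgeR adjusted p = 0.00328). For both, each T497A library was higher than each WT library. Set beside the values above, mt-Nd5 differed by 0.51, mt-Co1 by 0.42, mt-Cytb by 0.41, mt-Nd6 by 0.40 and mt-Nd4 by 0.37 on the log2 scale. The call of mt-Nd6 (edgeR adjusted p = 0.0386) was lost without any 1 of T497A TAC replicates 1, 2 and 3, WT TAC replicates 2 and 3, T497A sham replicate 3 and WT sham replicate 2, with adjusted p up to 0.132. The call of mt-Nd4 (edgeR adjusted p = 0.0185) was lost without T497A TAC replicate 3 (0.0847) and without WT TAC replicate 3 (0.0821).

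mt-Rnr1 stood at 3578, 3392 and 3852 CPM in T497A TAC, against 2009, 2346 and 2572 CPM in WT TAC, and was called higher (log2 fold change 0.64 ± 0.17, SE; edgeR adjusted p = 0.0383). mt-Rnr2 stood at 10467, 9113 and 12730 CPM in T497A TAC, against 6915, 6716 and 7486 CPM in WT TAC, and was also called higher (log2 fold change 0.61 ± 0.15, SE; edgeR adjusted p = 0.0232). Neither pair of groups overlapped. Leaving out any 1 TAC library or WT sham replicate 2 ended the call of mt-Rnr1, with adjusted p of 0.0558 to 0.128, and leaving out T497A TAC replicate 1 or 3 or any 1 WT TAC library ended that of mt-Rnr2, with adjusted p of 0.0640 to 0.0909. With no filter on low counts neither was called (0.117 and 0.0900). Of the 18 tRNA genes tested 10 were called higher, against 4.64% of all genes tested, with log2 fold changes of 0.42 for mt-Tp to 1.36 for mt-Ts2, whose call was lost without WT TAC replicate 3 (edgeR adjusted p = 0.0516). mt-Th had 1.18, mt-Tw 1.06, mt-Ta 1.03, mt-Tn 0.96, mt-Tc 0.77, mt-Ty 0.69, mt-Tm 0.65 and mt-Tq 0.60 on the log2 scale. The calls of mt-Tq, mt-Tm, mt-Tw and mt-Tp were lost when only the 2 groups compared were fitted. With library totals that of mt-Tp was lost as well (edgeR adjusted p = 0.111). In turn without single libraries, mt-Tp lost its call without each TAC library and WT sham replicate 1 (edgeR adjusted p of 0.0524 to 0.119), mt-Tq without T497A TAC replicates 1 and 3 and each WT TAC library (0.0606 to 0.118), mt-Tm without T497A TAC replicates 1 and 3 and WT TAC replicates 2 and 3 (0.0563 to 0.0887), and mt-Tw without T497A TAC replicate 3 and WT TAC replicates 2 and 3 (0.0623 to 0.113). mt-Te was not called (0.39; edgeR adjusted p = 0.0706).

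After sham surgery no mitochondrial gene was called between the genotypes, where 0.0254% of all genes tested were called higher. All 13 coding genes had a log2 fold change above 0, with a median of 0.19 against 0.0024 for all genes tested, 2 of them had an unadjusted p below 0.05, and edgeR's adjusted p was 1 for each. DESeq2 and limma-voom called 0 as well. For 11 of the 13 the libraries of the genotypes overlapped, and for 2 every T497A sham library lay above every WT sham library, against 4.23% of all genes tested.

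The interaction of genotype and surgery, computed as the log2 fold change after TAC in T497A less the one in WT, was above 0 for all 13 coding genes and called for none, where 0.894% of all genes tested were called higher. The median was 0.31, against -0.0016 for all genes tested, and 5 of 13 had an unadjusted p below 0.05. The smallest adjusted p among them was that of mt-Nd5 (0.44 ± 0.13 on the log2 scale, SE; edgeR adjusted p = 0.0965). DESeq2 called 1 of 13, and edgeR without the filter on low counts called 4. A larger fall in WT than in T497A thus did not pass the test of the difference. This comparison shares its TAC and sham libraries with those above.

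Averaged over genotypes, 13 of 13 coding genes and both rRNA genes were called lower after TAC, against 11.2% of all genes tested, though mt-Rnr1 was not with no filter on low counts (edgeR adjusted p = 0.0598). Averaged over surgeries, 4 of 13 coding genes were called higher in T497A, against 0.501% of all genes tested. These were mt-Nd2 (0.38), mt-Nd1 (0.35), mt-Cytb (0.30) and mt-Co1 (0.27 on the log2 scale), with edgeR adjusted p of 0.0180 to 0.0394. That count was 0 without T497A TAC replicate 3 and 0 without WT sham replicate 2, 1 to 2 without 8 other libraries taken in turn, and up to 6 without the rest.

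The coding genes were also set against their own sum. When the 13 coding genes together were taken as the library size, none of the 13 was called in any of the 7 comparisons. The divisor shifts nuclear genes against it, so that on this scale the genes called in either direction were 64.2% of those tested for TAC against sham in WT, 11.3% for TAC against sham in T497A, 50.0% for T497A against WT after TAC, 0.0317% for T497A against WT after sham, 5.53% for the interaction, 66.8% for TAC averaged over genotypes and 46.1% for T497A averaged over surgeries. The divisor consists almost wholly of the 7 genes with high counts, so changes that these share do not show on this scale. Within the WT comparison the log2 fold changes ran from -0.38 for mt-Nd4l to 0.14 for mt-Nd4, neither called. All 6 genes with low counts were below 0 after TAC in both genotypes, with a median of -0.19 in each. Of the 7 with high counts, 3 were below 0 in WT and 4 in T497A. An unadjusted p below 0.05 was found for 1 of 13 when TAC was averaged over genotypes and for 0 of 13 in the other comparisons, and limma-voom called mt-Atp8 in that average. Without WT TAC replicate 3, edgeR called mt-Co2, mt-Atp8 and mt-Nd4l lower within the coding genes after TAC in WT, all counted on few reads. In the average over genotypes, leaving it out gave calls of mt-Co2, mt-Atp8 and mt-Atp6, and leaving out T497A TAC replicate 1, T497A sham replicate 2 or WT sham replicate 2 gave 1, of mt-Atp8.

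The makeup of the coding counts was close in all groups. mt-Co1 took 30.6% ± 0.468 of the coding counts in T497A TAC, 31.4% ± 0.345 in WT TAC, 31.2% ± 0.295 in T497A sham and 31.7% ± 1.62 in WT sham (SD, n = 3 each). WT sham replicate 1 stood apart with 33.5%, against 30.8% and 30.7% in the other WT sham libraries. mt-Nd5 took 13.53%, 13% and 14.02% in WT TAC, against 14.9%, 14.7% and 15.3% in WT sham. mt-Nd4 took 8.64%, 9.16% and 8.55% in WT TAC, against 8.06%, 7.96% and 7.90% in WT sham, and mt-Cytb took 18.1%, 17.9% and 17.4% in WT TAC, against 17.0%, 17.0% and 16.7% in WT sham. So mt-Nd5 was lower and mt-Nd4 and mt-Cytb were higher in each WT TAC library, by amounts that did not pass the test. The other 10 coding genes overlapped, and the share of all genes apart on this scale was not counted. In T497A mt-Cytb went the other way, with 17.2%, 17.3% and 17.0% after TAC against 17.4%, 17.7% and 17.6% after sham. There mt-Nd4 and mt-Nd5 overlapped, and mt-Nd1 had a larger share in each TAC library than in each sham library. Between the sham groups, every T497A library had a larger share of mt-Cytb and a smaller one of mt-Nd5 than every WT library. None of these differences was called. After TAC, every T497A library had larger shares of mt-Nd1 and mt-Nd2 and smaller ones of mt-Nd4 and mt-Cytb than every WT library. The other 9 coding genes overlapped. None of the 13 was called or had an unadjusted p below 0.05 in this comparison, and here too the share of all genes apart was not counted. Complex I genes together took 52.2% of the coding counts in T497A TAC, 50.8% in WT TAC, 51.3% in T497A sham and 51.4% in WT sham. mt-Co2, mt-Co3, mt-Atp8 and mt-Atp6, of complexes IV and V, are among the genes with low counts. The complex I share therefore depends on how reads of the copied stretch were counted, and cannot be read as its part of mitochondrial mRNA.

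**Figure D4:**
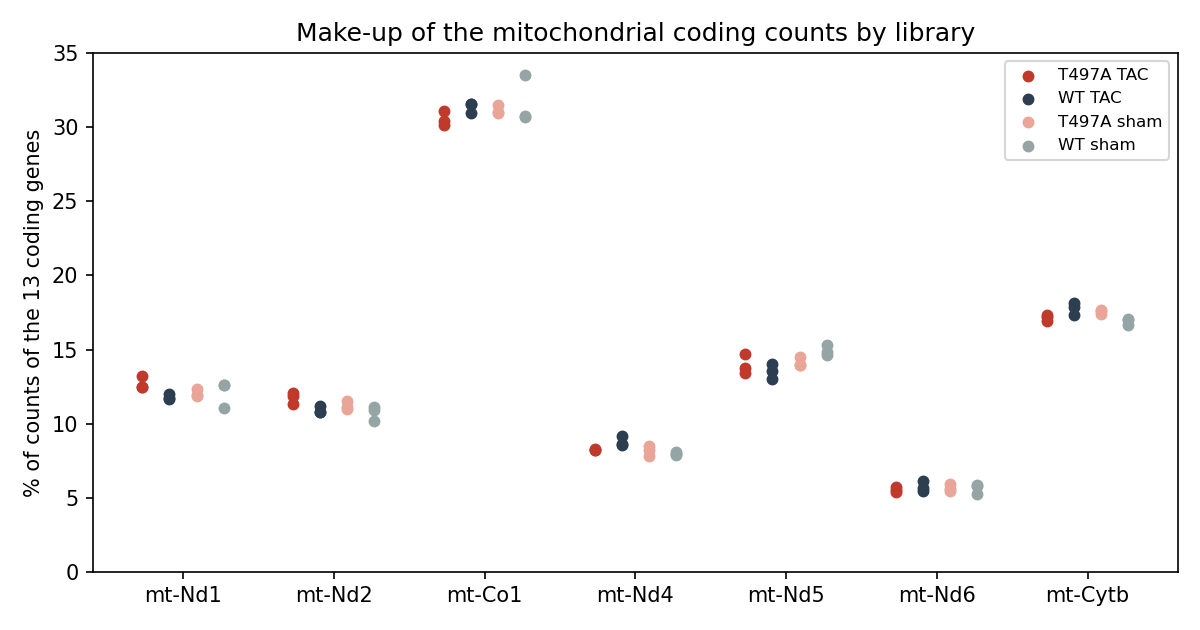
Share of the coding counts, in percent, taken by each of the 7 genes with high counts in every library, by group. mt-Co1 lies between 30.2% and 33.5%, and the groups differ by few percentage points for each gene.

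Several tRNA genes moved relative to the coding genes. On the scale of the coding counts 5 of 18 were called lower after TAC in WT, against 1.66% of all genes tested, and the same 5 were called higher in T497A than in WT after TAC, against 0.723% of all genes tested. The divisor itself fell in WT TAC, so these shares are low by construction and the counts of 5 cannot be read against them. The median of all genes on this scale was 0.60 after TAC in WT, with 62.6% called higher, and -0.45 in T497A against WT after TAC, with 49.3% called lower. The Benjamini-Hochberg adjustment ran over all genes tested, of which 64.2% and 50.0% were called in either direction on this scale. An adjusted p therefore lay nearer to the unadjusted p than against all counts, a weaker guard for the tRNA genes taken alone. In each comparison 6 of 18 tRNA genes had an unadjusted p below 0.05, the 5 called among them. Both comparisons use the WT TAC libraries. The 5 were mt-Ta, mt-Tn and mt-Tc, which are neighbours on the minus strand and read the codons of alanine, asparagine and cysteine, and mt-Th and mt-Ts2, which adjoin on the plus strand between mt-Nd4 and mt-Nd5 and serve histidine and serine. Their genes are shown 5′ to 3′ with the anticodon in capitals, at chrM:5018-5086, chrM:5089-5159 and chrM:5192-5257 on the minus strand and chrM:11546-11612 and chrM:11613-11671 on the plus strand (GRCm38, GENCODE).
mt-Ta: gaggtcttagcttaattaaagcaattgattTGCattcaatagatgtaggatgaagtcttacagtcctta
mt-Tn: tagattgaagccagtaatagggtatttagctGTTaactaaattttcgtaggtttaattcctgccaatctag
mt-Tc: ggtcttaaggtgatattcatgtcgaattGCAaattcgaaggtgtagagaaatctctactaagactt
mt-Th: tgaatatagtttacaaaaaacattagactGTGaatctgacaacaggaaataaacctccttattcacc
mt-Ts2: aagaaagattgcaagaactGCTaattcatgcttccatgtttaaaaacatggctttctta
With 75-cycle reads, 21 of the 22 tRNA genes are shorter than a read, so cut tRNAs and RNA still joined to its neighbours cannot be told apart.

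Expressed as CPM of the coding counts alone, mt-Ta had 193, 169 and 246 in T497A TAC, 149, 128 and 133 in WT TAC, 227, 190 and 183 in T497A sham, with 191, 196 and 170 in WT sham. All WT TAC libraries were below all others. On this scale its log2 fold change was -0.44 ± 0.14 for TAC against sham in WT (SE; edgeR adjusted p = 0.00831) and 0.57 ± 0.14 for T497A against WT after TAC (SE; edgeR adjusted p = 0.00276). mt-Tn and mt-Tc had -0.32 and -0.31 after TAC in WT, and 0.50 and 0.31 in T497A against WT after TAC. In the genotype comparison mt-Tc had an edgeR adjusted p of 0.0498, and the WT TAC libraries were below all WT sham and T497A TAC libraries for both genes. mt-Ts2, with 24 to 103 counts per library, had 9.23, 6.29 and 7.52 CPM of coding counts in T497A TAC, 5.21, 3.78 and 3.22 in WT TAC, 4.83, 6.23 and 6.87 in T497A sham, with 9.97, 7.32 and 6.10 in WT sham. WT TAC was below both T497A TAC and WT sham but overlapped T497A sham. Averaged over genotypes, mt-Tc alone was called lower after TAC on this scale, against 1.34% of all genes tested, and averaged over surgeries mt-Ta, mt-Tn and mt-Tc were called higher in T497A, against 0.438% of all genes tested.

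These calls were less firm than those against all counts. After TAC in WT, that of mt-Ta held without each library, whereas that of mt-Tn was lost in turn without WT TAC replicates 2 and 3 and WT sham replicates 1 and 2 (edgeR adjusted p of 0.0621 to 0.149), and that of mt-Tc without WT TAC replicates 1 and 2 and WT sham replicates 1 and 2 (0.0604 to 0.166). mt-Th lost its call without WT TAC replicates 2 and 3 and WT sham replicate 1 (0.0762 to 0.113), and mt-Ts2 without WT TAC replicate 3 and WT sham replicate 1 (0.0578 and 0.0674). With the geometric mean of the 13 coding genes as divisor, mt-Ta, mt-Tn, mt-Tc and mt-Th were not called (0.0547 to 0.253). In T497A against WT after TAC, mt-Ta held without each library, mt-Tn was lost without T497A TAC replicate 3 (0.0538), mt-Th and mt-Ts2 were each lost without T497A TAC replicate 1 and WT TAC replicates 2 and 3 (0.0599 to 0.112), and mt-Tc was lost without 9 of 12 libraries taken in turn (0.0507 to 0.374).

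**Figure D5:**
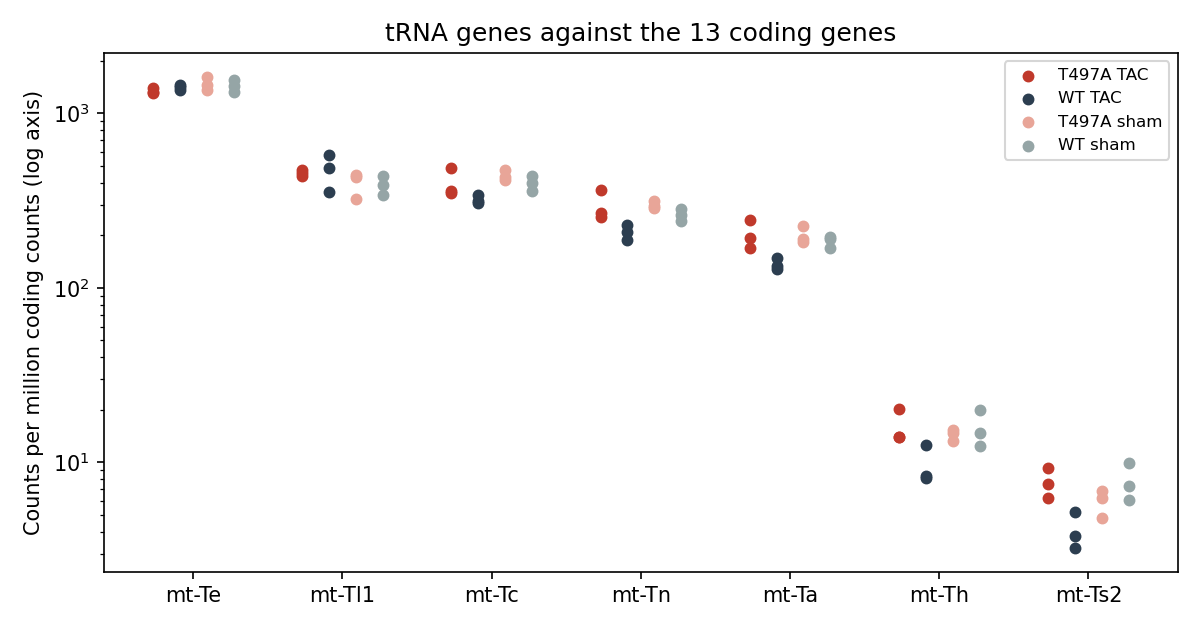
CPM of the coding counts (log axis) of the 2 tRNA genes with the highest counts, mt-Te and mt-Tl1, and of the 5 called on the scale of the coding counts, by library and group. mt-Ta lies at 128 to 149 in WT TAC and at 169 or more in all other libraries.

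Counts of the tRNA genes spanned a wide range and differed by strand and place. Of the 8 on the minus strand 7 averaged over 1000 counts per library, and of the 14 on the plus strand 2 did. The highest were mt-Te with a mean of 14326, mt-Tl1 with 4279 and mt-Tc with 4000 counts. The 5 tRNA genes within the copied stretch, mt-Ts1, mt-Td, mt-Tk, mt-Tg and mt-Tr, averaged 0 to 33.2 counts, whereas the 17 outside it averaged 8.92 to 14326. mt-Td and mt-Tk had 0 counts in all 12 libraries. Of these 5, mt-Td, mt-Tk, mt-Tg and mt-Tr lie on the plus strand, so strand and place cannot be told apart for them. Of the 22 tRNA genes 21 are shorter than a read, so reads over them can also cover neighbouring genes. How such reads were counted, and whether strand was used, is not given. The parts of read assignment and of the nuclear copy in these counts were not tested.

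Most nuclear subunits of the same complexes also fell in WT after TAC. Of 36 complex I subunits 29 were called lower, with a median log2 fold change of -0.33, against 12.6% of all genes tested and a median of 0.01. Among those with the smallest p were Ndufs1 (-0.60), which holds iron-sulfur clusters, and Ndufv2 (-0.41). The counts were 4 of 4 for complex II, which has no mitochondrially encoded subunit, 7 of 9 for complex III, 11 of 12 for complex IV and 14 of 16 for complex V, with medians of -0.51, -0.31, -0.33 and -0.38. With library totals in place of TMM, which move the median of all genes up by 0.19, these counts were 7 of 36 for complex I, 3 of 9 for complex III, 2 of 12 for complex IV and 7 of 16 for complex V. Sdha, the flavin-bearing subunit of complex II, had the largest fall among the subunits tested after Cox7a1, a muscle subunit of complex IV. Sdha stood at 1210, 1207 and 1372 CPM in T497A TAC, 967, 1006 and 970 CPM in WT TAC, 1710, 1442 and 1593 CPM in T497A sham, with 1791, 1569 and 1684 CPM in WT sham. WT TAC was lowest throughout, with a log2 fold change of -0.78 ± 0.079 for TAC against sham in WT (SE; edgeR adjusted p = 2.36e-05). Cox7a1 had -0.86, Cox7b -0.50, Cox4i1 -0.33, Uqcrc1 -0.48, Uqcrc2 and Uqcrfs1 -0.45 each, Sdhc -0.57, Sdhb -0.45, and the ATP synthase subunits Atp5c1, Atp5pb and Atp5g3 had -0.47, -0.46 and -0.45 on the log2 scale. In T497A after TAC none of these subunits was called, where 0.0507% of all genes tested were called lower. Their medians were -0.21 to -0.23, against 0.0069 for all genes tested. Between the genotypes after TAC 6 of 36, 3 of 4, 1 of 9, 2 of 12 and 3 of 16 were called higher in T497A for complexes I to V, against 4.64% of all genes tested, with medians of 0.14 to 0.25. Whether mitochondrial and nuclear subunits differ in their change was not tested.

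Genes that transcribe, copy and process mitochondrial RNA gave mixed counts. Of 16 genes for transcription and replication 8 were called lower after TAC in WT, and of 34 genes for RNA processing, modification and turnover 14 were called lower, against 12.6% of all genes tested. In the second list 1 gene was called higher, Rexo2, a nuclease that degrades short RNAs (0.31), against 12.3% of all genes tested. The median log2 fold changes were -0.29 and -0.24, and with library totals 4 of 16 were lower in the first list and 5 of 34 lower and 3 higher in the second. Among the first, Top1mt, the mitochondrial topoisomerase, Mgme1, a nuclease of mitochondrial DNA, and Mterf2 had -1.08, -0.65 and -0.63. Tfam, which packages mitochondrial DNA and starts its transcription, was called lower (-0.28 ± 0.078, SE; edgeR adjusted p = 0.0168), a call lost without WT TAC replicate 2 (0.0647) or WT sham replicate 2 (0.0693). Polrmt, the mitochondrial RNA polymerase, had -0.30 and was not called (edgeR adjusted p = 0.102). Nsun4, which methylates the small subunit rRNA, was called lower (-0.51). Mtpap, the poly(A) polymerase of mitochondria, and Slirp, the partner of Lrpprc, had 0.08 and -0.05 and were not called.

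Lrpprc, which binds and stabilises mitochondrial mRNAs, stood at 233, 220 and 231 CPM in T497A TAC, 183, 191 and 181 CPM in WT TAC, 294, 240 and 268 CPM in T497A sham, with 307, 287 and 288 CPM in WT sham. WT TAC lay below all other libraries. The log2 fold change was -0.67 ± 0.072 for TAC against sham in WT (SE; edgeR adjusted p = 3.38e-05) and 0.31 ± 0.072 for T497A against WT after TAC (SE; edgeR adjusted p = 0.0193), the second lost with library totals (0.177) and in turn without T497A TAC replicates 1 and 3 and WT TAC replicates 1 and 3 (0.0585 to 0.0849). Hsd17b10, a subunit of the enzyme that cuts tRNAs at their 5′ end, stood at 72.0, 73.5 and 80.1 CPM in T497A TAC, 57.7, 63.5 and 57.7 CPM in WT TAC, 83.7, 84.4 and 88.1 CPM in T497A sham, with 94.4, 90.9 and 87.9 CPM in WT sham. WT TAC was again below all others, and the log2 fold change for TAC against sham in WT was -0.61 ± 0.067 (SE; edgeR adjusted p = 3.94e-05). In T497A after TAC none of the 50 genes of both lists was called, where 0.0507% of all genes tested were called lower. Between the genotypes after TAC 4 of 16 and 6 of 34 were called higher in T497A, against 4.64% of all genes tested.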

How the data were processed

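The authors deposited 1 table of whole-number read counts per gene, with no scaling. Build mm10 is listed, per the submitters' processing notes, along with limma 3.50.3, Subread 1.6.3, STAR 2.7.3a, Trim Galore 0.6.4 and featureCounts. How they were set, whether strand was used and how reads with several placements were counted is not given in the sources used here. Groups come from the labels. Since the titles share 1 replicate number, libraries were numbered within a group by accession. Replicate libraries differed by more than sampling noise (chi-square per degree of freedom 23.1 to 63.3).

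Positions and transcripts come from GENCODE for GRCm38, where 55141 of 55401 identifiers matched. Genes kept by filterByExpr (minimum count 10, 15764 genes) went into 1 edgeR 4.0.16 model under R 4.3.3 (TMM scaling, robust glmQLFit, glmQLFTest, 4 groups) with Benjamini-Hochberg adjustment over all of them, and again with the summed counts of the 13 coding genes as library size. The biological coefficient of variation was 17.2%. All 13 coding and 2 rRNA genes and 18 of 22 tRNA genes were tested. An SE is the size of the log2 fold change over the square root of F. The fits were run on simulated counts with less spread than these data. That check required large changes to be recovered and few unchanged genes called, so it says little about the smaller changes reported here. Alternatives used DESeq2 1.42.0, limma-voom (limma 3.58.1), other scalings, no filter, and each library left out.

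The members, gene lists and tests were chosen with earlier results of these data known. All coding and rRNA genes are named, the 3 tRNA genes with the highest mean count and those called, and from each nuclear list up to 3 genes with the smallest p per direction for TAC in WT, plus Polrmt, Tfam, Lrpprc, Slirp and Mtpap. One gene that this rule names is not reported here.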

Additional observations from a re-analysis of the deposited data

Results flagged for a closer look

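The effect of TAC differed between the genotypes for 2 genes of mitochondrial RNA handling. The interaction, the log2 fold change after TAC in T497A less the one in WT, was 0.44 ± 0.10 for Lrpprc (SE; edgeR adjusted p = 0.0481) and 0.43 ± 0.094 for Hsd17b10 (SE; edgeR adjusted p = 0.0432). Both were called among 34 genes of their list, against 0.894% of all genes tested called higher. Among the cell type markers Ryr2, of cardiomyocytes, had an interaction of 0.78 (edgeR adjusted p = 0.0432) and Col1a2, of fibroblasts, one of -1.11 (edgeR adjusted p = 0.0481), and their part in the values of Lrpprc and Hsd17b10 was not tested. Over the alternatives the value ran from 0.33 to 0.52 for Lrpprc, with adjusted p of 0.00488 to 0.143, and from 0.31 to 0.48 for Hsd17b10, with adjusted p of 0.00264 to 0.148. Each call was lost under 11 of 17 alternatives, with library totals as the scale and without 10 of the 12 libraries taken in turn.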

How the results depend on the processing

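The 13 calls after TAC in WT held under every other tool, scaling and filter tried and numbered 12 to 13 with each library left out. For T497A against WT after TAC the 9 calls became 6 to 10 with a library left out, 13 with DESeq2 or with no filter on low counts, 10 with limma-voom, 7 with only the 2 groups compared and 6 with library totals. For TAC in T497A the 0 calls became 2 with DESeq2 and 6 with no filter, and for the interaction 1 and 4. Averaged over surgeries the 4 calls became 12 with DESeq2, 10 with no filter, 2 with library totals and 0 to 6 with a library left out. T497A TAC replicate 3 and WT sham replicate 2 gave the 0. Within the coding genes the 0 calls became 0 to 3 with a library left out, for TAC in WT and for TAC averaged over genotypes, and 1 with limma-voom in the average. The geometric mean of the 13 coding genes, and that of the 7 with high counts, a divisor chosen after seeing the data, gave 0 calls in all 7 comparisons. The cause of these changes was not tested. With the 13 coding genes only, the share was 23.8% in T497A TAC, 19.0% in WT TAC, 27.5% in T497A sham and 25.3% in WT sham, lower by construction.

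No gene reversed in the 1860 values recomputed. They cover the coding and rRNA genes, the tRNA genes named with a test, Lrpprc, Tfam, Polrmt and Hsd17b10, each in selected comparisons. The other nuclear genes named, such as Sdha and Cox7a1, were not recomputed singly. Nor was any mitochondrial gene for T497A against WT after sham or averaged over surgeries, or for the interaction. Against all counts, 545 of 558 values kept their side of the threshold for TAC in WT, 262 of 270 for TAC in T497A, 434 of 522 for T497A against WT after TAC, with 67 losing and 21 gaining a call, 254 of 255 for TAC averaged over genotypes and 12 of 34 for the interaction. Against coding counts, 119 of 136 did for TAC in WT and 65 of 85 for T497A against WT after TAC. Library totals shifted the median of all genes by 0.19 after TAC in WT and by -0.13 for T497A against WT after TAC (log2). Nuclear complex I, III, IV and V then had 7, 3, 2 and 7 subunits called lower after TAC in WT. Calls lost were those of Tfam and mt-Ti after TAC in WT and of Lrpprc and Hsd17b10 in the interaction. Those of mt-Atp8, mt-Nd4, mt-Nd6, mt-Tp and Lrpprc for T497A against WT after TAC were lost too. No paired analysis was possible because the labels give all libraries the same replicate number. Counts of the 6 genes in the copied stretch limit what can be said of complex V, whose 2 mitochondrial subunits are both among them.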

Other observations

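Other nuclear copies of mitochondrial genes also had counts. On chromosome 2, Gm13340, a copy of mt-Co1 that is 97.6% identical over 1545 bases, had 431 to 767 counts per library. Gm13339, 96.7% identical to part of mt-Nd2, had 125 to 287, and Gm13341, a copy of mt-Co2, had 280 to 546. Bases were compared without gaps, which gave 74.3% identity of Gm13341 to mt-Co2. Gm13341 also shares whole windows of read length with mt-Co2, so this figure can understate their likeness. Whether a gap lowered it was not tested. The processed pseudogenes of mt-Nd5, Gm11407 on chromosome 4 and Gm4076 on chromosome 13, had 14 to 39 and 54 to 120 counts. All of these lie far below the counts of the genes they resemble except mt-Co2, which averaged 1157.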
